A study of Homo sapiens with 6 samples.

Results

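The genes that write and erase methyl groups on histones were followed in WM164 melanoma cells that carried an empty expression vector (EV) or an expression vector for HDAC8, a class I histone deacetylase. Members were the protein-coding genes of the deposited table whose symbol starts with KMT, KDM, SETD, SUV39H, EHMT, PRMT, DOT1L, EZH, EED, SUZ12, NSD or SMYD. This rule used no measured value and found 65 genes among 19664 protein-coding genes and 60504 genes in all. It takes in 1 gene that only shares a prefix, NSDHL, an enzyme of cholesterol synthesis, and it leaves out enzymes with other names such as ASH1L, CARM1 and PHF8, which are described separately.

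RNA-seq libraries came from WM164, a human melanoma line that is BRAFV600E, with 3 EV libraries and 3 libraries labelled HDAC8. All 6 share the line, its genotype and a transfected plasmid backbone, and per the study's methods transfected cells were kept in hygromycin, so both groups are selected, vector-bearing cultures of 1 line. The labels number the libraries of each group from 1 to 3 as biological replicates without saying whether separate cultures or transfections stand behind the numbers, so p-values measure only the spread between these samples. HDAC8 itself was at 384, 404 and 479 normalized counts in EV libraries and 485, 446 and 474 in those labelled HDAC8 (log2 fold change 0.15, 95% interval -0.41 to 0.70, DESeq2 adjusted p = 0.856), so the labels could not be checked by its transcript, and each direction given here rests on them.

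Histone methylation is set by SET-domain enzymes on lysines, by DOT1L on a lysine of the H3 core and by PRMT enzymes on arginines, all of which use S-adenosylmethionine as the methyl donor. It is removed by the LSD amine oxidases and by the Jumonji family of iron-dependent demethylases. Methylation of H3K4, H3K36 and H3K79 accompanies transcribed chromatin, whereas H3K9 methylation marks heterochromatin and H3K27 trimethylation, made by Polycomb repressive complex 2 (PRC2), marks silenced developmental genes. In melanoma EZH2, SETDB1 and the H3K4 demethylase KDM5B have been studied for their part in silencing and in slowly cycling cells.

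Libraries held 34741083 to 42041462 counts. Mitochondrially encoded transcripts took 9.66% to 12.8% of the counts in EV libraries and 4.46% to 7.94% in those labelled HDAC8. Members took 0.519% to 0.527% of the counts outside mitochondrial genes in EV libraries and 0.554% to 0.589% in the others. A fit without mitochondrial genes gave the same numbers of called members. A gene was called when its DESeq2 adjusted p, over all genes tested, was under 0.05 and the size of its log2 fold change reached 0.58, the fold minimum that the study used. Over all genes with an adjusted p, 5.57% were called higher and 5.44% lower, and the marker counts here stand beside these shares. Of 8 melanocytic markers 5 were lower (MLANA, PMEL, TYR, DCT and S100B) and 0 were higher, and among 10 proliferation markers MCM2 and MCM5 were called higher and 0 lower. PCNA (log2 fold change 0.52, DESeq2 adjusted p = 0.0229) and MKI67 (-0.54, 0.00149) passed the adjusted p in opposite directions under the fold minimum. Among 15 markers of keratinocytes, fibroblasts, leukocytes and endothelium, 4 had no more than 3 counts in any library (KRT1, DCN, PTPRC and CDH5), PDGFRA and CD3E were called higher, and 0 were called lower. CD3E had 0 counts in each EV library and 78.7, 91.1 and 50.1 normalized counts in the others. Summed normalized counts of the keratinocyte markers were 146.6 to 280.0 in EV libraries and 165.5 to 176.2 in the others. The sums were 2394 to 2776 and 1382 to 2393 for the fibroblast markers, 52.3 to 229.5 and 127.4 to 247.8 for the leukocyte markers, and 155.2 to 255.1 and 212.3 to 357.4 for the endothelial markers. LUM alone made up most of the fibroblast sum (2662, 2205 and 2519 in EV against 1054, 2158 and 1676 in HDAC8) and was not called. In bulk RNA fewer cells of a type and less RNA per cell cannot be told apart. The part of these marker differences in the results on members was not tested.

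Of the 65 members, 62 had at least 10 counts over the 6 libraries. The 3 under that minimum were PRMT8, KDM4F and a Y-linked member whose values are not given. KDM4E had 29 counts in HDAC8 1 and 0 in the other libraries, and DESeq2 gave it no adjusted p. The other 61 were well measured for the most part, with a median normalized count of 1772 against 811.2 over the protein-coding genes.

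By the rule given for calls, 6 of the 61 members were called higher in the libraries labelled HDAC8 (KMT2A, PRMT5, KDM2A, KDM6B, KDM5C and EZH1), 2 were called lower (SMYD3 and KDM7A) and 53 were not called. Higher calls made up 9.84% of members, beside 5.57% of all genes and 7.25% of protein-coding genes. Lower calls made up 3.28%, beside 5.44% of all genes and 6.62% of protein-coding genes. With the fold minimum set aside, 11 of the 61 members were higher and 2 lower. The background was 1394 and 1342 of 21021 genes (6.63% and 6.38%), and 1256 and 1143 of 14272 protein-coding genes. Normalized counts of the groups did not overlap for 26 members. In 19 of these (31.1% of the 61) the libraries labelled HDAC8 lay above, beside 13.8% of all genes and 16.9% of protein-coding genes, and in 7 (11.5%) they lay below, beside 15.2% and 17.6%. The compared sets were not matched for count level. The median normalized count was 1772 over members, 811.2 over protein-coding genes and 269 over all genes. The log2 fold change was positive in 38 members and negative in 23, and its median was 0.12, against 0.01 over the protein-coding genes. Leaving out the member that only shares a prefix gave the same calls.

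**Figure D1:**
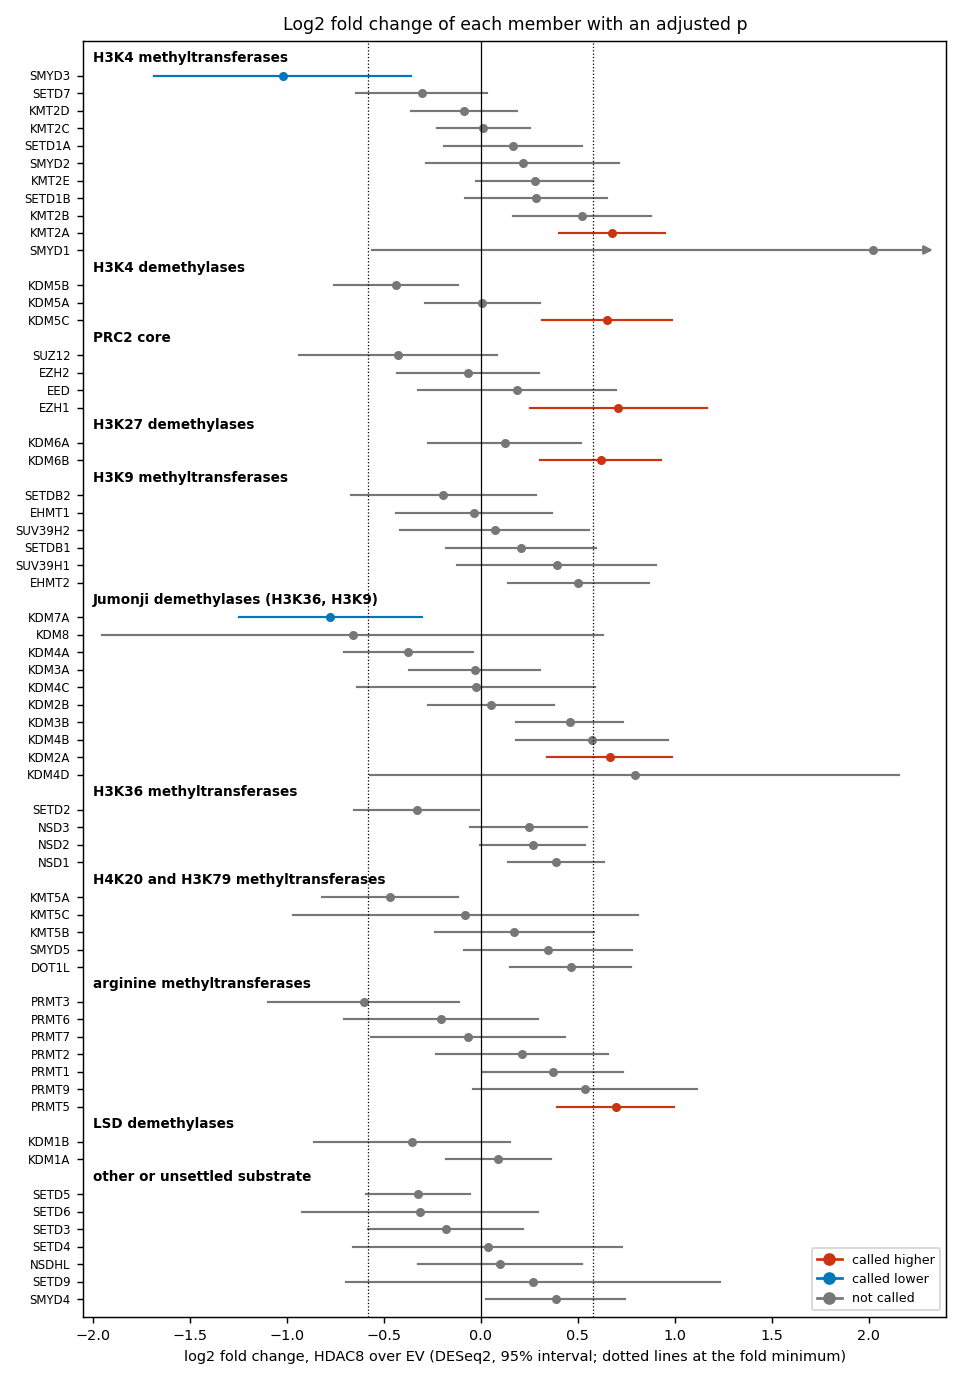
Log2 fold change of HDAC8 over EV (horizontal axis) with its 95% interval from the DESeq2 standard error for the 61 members with an adjusted p, grouped by role; red marks the 6 called higher, blue the 2 called lower and grey the 53 not called, and dotted lines stand at 0.58 on either side of 0. Most grey intervals cross 0, and the interval of SMYD1, which had few counts, runs past the right edge.

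The promoters of called members are shown first, as the sequences before their annotated starts. Which starts these cells use was not measured. RefSeq promoter sequences (GRCh38.p14) were found for 61 of the 65 members, the 8 called ones included, and the 250 bases before the RefSeq start were searched on both strands. The 4 sequences here belong to the called members with the steadiest calls (KMT2A and PRMT5, under the alternatives tried), to the H3K27 demethylase that was higher (KDM6B) and to a member that was lower (KDM7A). Each is written 5′ to 3′ on the gene's strand and ends just before the more upstream of the RefSeq and GENCODE starts. Capitals mark GC boxes (GGGCGG on either strand) in KMT2A, KDM6B and KDM7A and CCAAT boxes (CCAAT on either strand) in PRMT5. The KMT2A stretch is chr11:118436242-118436455 on the plus strand, that of PRMT5 chr14:22929409-22929626 on the minus strand, that of KDM6B chr17:7833967-7834216 on the plus strand and that of KDM7A chr7:140176984-140177233 on the minus strand.
KMT2A: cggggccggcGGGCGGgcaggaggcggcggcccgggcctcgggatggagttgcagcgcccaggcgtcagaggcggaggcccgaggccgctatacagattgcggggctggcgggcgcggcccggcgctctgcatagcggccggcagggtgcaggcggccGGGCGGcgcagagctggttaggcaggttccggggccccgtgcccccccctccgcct
PRMT5: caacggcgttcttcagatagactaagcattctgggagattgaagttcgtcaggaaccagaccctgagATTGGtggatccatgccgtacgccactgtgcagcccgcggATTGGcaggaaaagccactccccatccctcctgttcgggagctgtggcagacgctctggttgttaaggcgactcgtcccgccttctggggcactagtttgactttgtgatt
KDM6B: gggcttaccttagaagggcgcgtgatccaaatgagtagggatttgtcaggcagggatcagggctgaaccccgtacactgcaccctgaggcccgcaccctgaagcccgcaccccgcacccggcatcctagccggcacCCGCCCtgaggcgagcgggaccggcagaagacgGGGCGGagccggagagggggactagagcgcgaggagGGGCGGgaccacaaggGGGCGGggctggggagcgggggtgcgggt
KDM7A: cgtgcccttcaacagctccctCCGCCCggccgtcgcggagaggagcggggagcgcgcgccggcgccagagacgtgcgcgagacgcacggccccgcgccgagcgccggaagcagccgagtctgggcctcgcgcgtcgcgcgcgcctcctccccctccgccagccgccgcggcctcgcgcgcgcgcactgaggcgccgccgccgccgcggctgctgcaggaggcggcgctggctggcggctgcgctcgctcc

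These stretches hold 2 GC boxes before KMT2A, 4 before KDM6B, 1 before KDM7A and 2 CCAAT boxes before PRMT5. The upstream end of the KDM7A stretch, its GC box included, lies inside the annotated non-coding gene KDM7A-DT (chr7:140177184-140179640, plus strand). Over the full 250 bases a GC box was present in 70.5% of the member promoters and 42.6% of 35116 RefSeq promoters, and a CCAAT box in 36.1% and 32% of them. Members had 1 window per gene. The RefSeq set was limited neither to 1 window per gene nor to protein-coding genes. The shares and medians given here are therefore not like for like, and whether a difference belongs to these genes was not tested. Member promoters were rich in G and C, with a median of 65.6% against 58% over all promoters, and held a median of 23 CpG dinucleotides against 11. None of the 8 called promoters held the AP-1 letters TGANTCA, the TEAD letters GGAATG, the E-boxes CACGTG or CATGTG, or the CRE letters TGACGTCA. The AP-1 letters occurred before 3.28% of members and 6.57% of all promoters, and the TEAD letters before 8.2% and 11.9%. The E-box CACGTG stood before 16.4% of members (10, KMT2D, NSD1 and SETDB1 among them) and 6.34% of all promoters, and the E-box CATGTG before 3.28% and 9.42%. The CRE letters were found before 1.64% and 1.65%. No motif searched contains another, and a match describes the letters only.

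**Figure D2:**
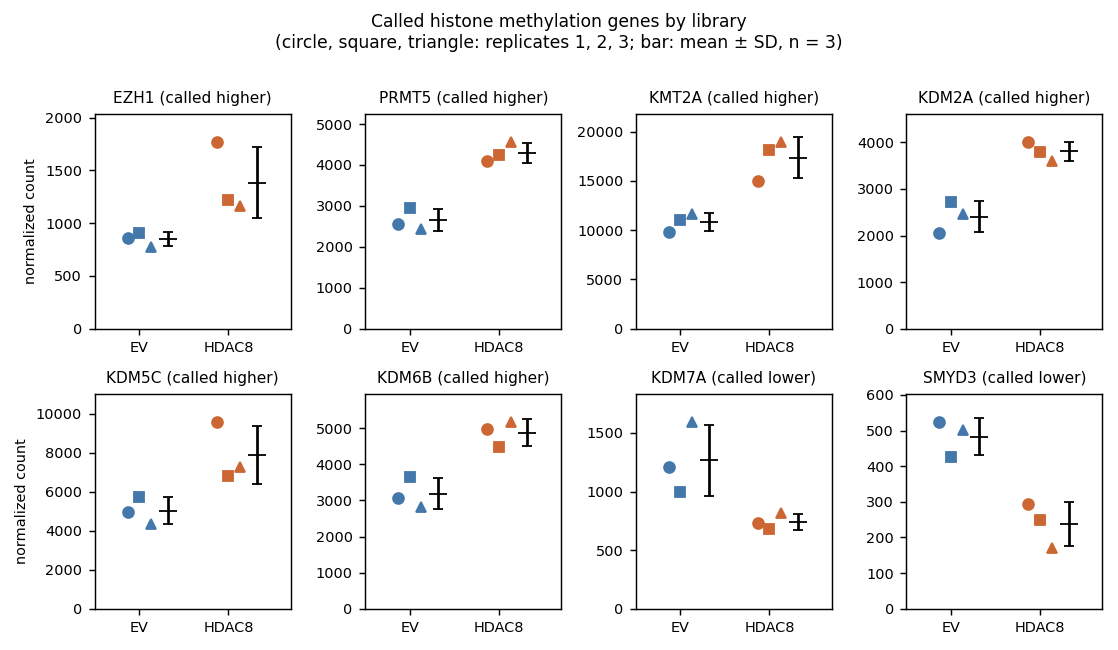
Normalized counts (vertical axes, from 0) of the 8 called members in each EV library (blue) and each library labelled HDAC8 (orange), with the mean ± SD of each group (black, n = 3). In every panel the 3 libraries of one group lie apart from the 3 of the other; for EZH1 and KDM5C the circle of HDAC8 1 lies well above its group's other libraries.

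Of the 11 members grouped as H3K4 methyltransferases, 1 was called higher and 1 lower (9.09% each, beside 5.57% and 5.44% of all genes). KMT2A, also known as MLL1, is the catalytic subunit of a complex that methylates H3K4 at promoters of developmental genes. It lies at chr11:118436456-118526832 on the plus strand (GRCh38, GENCODE 44, as for the other positions). Its normalized counts were 9853, 11076 and 11638 in EV 1, 2 and 3 and 14984, 18079 and 18959 in HDAC8 1, 2 and 3. All 3 libraries labelled HDAC8 lay above the EV range, and KMT2A rose 1.6-fold (95% interval 1.32 to 1.93, log2 SE 0.14, DESeq2 adjusted p = 4.22e-05), the smallest adjusted p among members. Apart from the test against the fold minimum itself, KMT2A and PRMT5 were called under every alternative run. KMT2B, the closest relative of KMT2A, passed the adjusted p without reaching the fold minimum: its counts were 3255, 4623 and 3357 in EV libraries and 6298, 4661 and 5178 in the others (log2 fold change 0.52, SE 0.18, DESeq2 adjusted p = 0.0355). The groups lay apart by a narrow margin, with EV 2 just under HDAC8 2, and KMT2B was called higher when EV 2 or HDAC8 2 was left out. EV 2 was its highest EV library and HDAC8 2 its lowest labelled HDAC8, so leaving out either widens the difference. With the fold minimum kept, no other alternative called KMT2B. Whether it still passed the adjusted p under those alternatives is not given here.

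KMT2C and KMT2D, which place H3K4 monomethylation at enhancers, were not called. KMT2C had 17330.2, 16362 and 18617 normalized counts in EV libraries and 16655, 17846 and 18255 in the others, and its log2 fold change of 0.01 had a 95% interval of -0.23 to 0.25. That interval holds no change as large as the fold minimum in either direction, and the same was true of KMT2D (log2 fold change -0.09, interval -0.36 to 0.19). SETD1A and SETD1B, the catalytic subunits that carry much of H3K4 trimethylation, had log2 fold changes of 0.17 (interval -0.19 to 0.52) and 0.28 (interval -0.08 to 0.65), with overlapping groups. SETD7, a monomethyltransferase with many non-histone substrates, and KMT2E, a member without clear catalytic activity, were not called either. SMYD1, an enzyme of heart and skeletal muscle, had at most 67.5 normalized counts in any library and was not called.

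SMYD3, which has been described as an H3K4 writer and also methylates cytoplasmic kinases, lies at chr1:245749342-246507312 on the minus strand. It had 524, 425 and 500.4 normalized counts in EV 1, 2 and 3 and 293, 249.9 and 169.9 in HDAC8 1, 2 and 3. Each library labelled HDAC8 lay below each EV library, and SMYD3 fell by 50.8% (log2 fold change -1.02, SE 0.34, DESeq2 adjusted p = 0.0247), the largest negative log2 fold change of the 61. The call was lost without EV 1 (adjusted p = 0.161), EV 2 (0.0621), EV 3 (0.131) or HDAC8 3 (0.146), with the log2 fold change at -0.83 or lower in each of these.

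H3K4 methylation is removed by the KDM5 enzymes, of which 1 of the 3 with an adjusted p was called (higher, 33.3% beside 5.57% of all genes). KDM5C, an X-linked demethylase of di- and trimethylated H3K4, lies at chrX:53176283-53225422 on the minus strand. Its counts were 4988, 5740.0 and 4346 in EV libraries and 9593, 6834 and 7257 in HDAC8 1, 2 and 3. The groups did not overlap, HDAC8 1 was the highest of all, and KDM5C rose 1.57-fold (95% interval 1.25 to 1.98, DESeq2 adjusted p = 0.00217). Without HDAC8 1 the adjusted p was 0.0039 and the log2 fold change 0.49, under the fold minimum; without EV 3 they were 0.0621 and 0.55. KDM5B, the relative studied in slowly cycling melanoma cells, had 7285, 7269.7 and 7746 in EV libraries and 4323, 6426 and 5730.1 in the others. Those labelled HDAC8 all lay lower, with HDAC8 1 the lowest, but KDM5B was not called (log2 fold change -0.44, interval -0.76 to -0.12, DESeq2 adjusted p = 0.0555). KDM5A had a log2 fold change of 0.01 (interval -0.29 to 0.30).

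PRC2 consists of a catalytic subunit, EZH2 or the less active EZH1, together with EED, which reads the mark, and SUZ12, the scaffold. EZH1 was the 1 of these 4 that was called (higher, 25% beside 5.57% of all genes). It lies at chr17:42700275-42745049 on the minus strand, and its counts were 859, 908 and 775 in EV libraries and 1771, 1219 and 1165 in HDAC8 1, 2 and 3. The EV libraries lay close together and all 3 others lay above them, HDAC8 1 by far the highest, and EZH1 rose 1.64-fold (95% interval 1.19 to 2.24, DESeq2 adjusted p = 0.0219). This was the least steady of the higher calls. It was lost without HDAC8 1 (log2 fold change 0.49, adjusted p = 0.102), without EV 1 (adjusted p = 0.0949), EV 2 (0.0504) or EV 3 (0.142), and under limma-voom (adjusted p = 0.0558).

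EZH2, the form of dividing cells, had 2224, 1868 and 2414 normalized counts in EV libraries and 2192, 2268 and 1756 in the others. The groups overlapped, the log2 fold change was -0.07 and its interval of -0.43 to 0.30 held no change of the size of the fold minimum. EED had 481, 498 and 479 in EV against 596, 519 and 542 in HDAC8, a narrow separation that did not pass (log2 fold change 0.18, DESeq2 adjusted p = 0.783). SUZ12 had 2165, 1816 and 2402 in EV libraries and 921, 2073 and 1753 in the others, where HDAC8 1 was low and HDAC8 2 lay within the EV range. Its log2 fold change was -0.43 (interval -0.94 to 0.08) and -0.16 without HDAC8 1. The transcribed pseudogene SUZ12P1 had 266, 318 and 279.8 in EV against 109, 179 and 104 in HDAC8 (log2 fold change -1.14, DESeq2 adjusted p = 0.0503), and since it copies part of SUZ12, the division of reads between them is uncertain.

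Trimethylated H3K27 is demethylated by KDM6A (UTX) and KDM6B (JMJD3), the latter known as a gene that is readily induced by inflammatory and stress signals. KDM6B, at chr17:7834217-7854796 on the plus strand, had 3076, 3649.8 and 2814 normalized counts in EV libraries and 4989, 4472 and 5176 in HDAC8 1, 2 and 3. Every library labelled HDAC8 exceeded every EV library, and KDM6B rose 1.53-fold (95% interval 1.24 to 1.9, DESeq2 adjusted p = 0.00166). The value stood close to the fold minimum, and the call was lost without EV 3 (log2 fold change 0.53), without HDAC8 3 (0.57) and when normalization was done within bins of GC content (0.46, adjusted p = 0.00442). KDM6A had 1279, 1194 and 1188 in EV against 1135, 1317 and 1533 in HDAC8, with overlapping groups and a log2 fold change of 0.12 (interval -0.28 to 0.52). The sum of the pair, which leaves out KDM7A, was 4355, 4844 and 4003 in EV libraries and 6124, 5789.5 and 6709 in the others.

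None of the 6 writers of H3K9 methylation was called, beside 5.57% of all genes called higher and 5.44% lower. SETDB1, which silences endogenous retroviruses together with TRIM28, had 1431, 1733 and 1659 normalized counts in EV libraries and 2234, 1725 and 1611 in the others (log2 fold change 0.21, interval -0.18 to 0.60). Its groups overlapped, with HDAC8 1 the highest. EHMT1 and EHMT2, the GLP and G9a proteins that dimethylate H3K9 as a heterodimer, differed in their values. EHMT1 had 2137, 2012 and 2005 in EV against 2505, 1509.6 and 1982 in HDAC8 (log2 fold change -0.04, interval -0.44 to 0.37). EHMT2 had 1256, 1427 and 1209.7 in EV against 1969, 1661 and 1886 in HDAC8, with all libraries labelled HDAC8 above EV. It just missed the adjusted p threshold and also lay under the fold minimum (log2 fold change 0.50, DESeq2 adjusted p = 0.0502). The heterochromatin enzymes SUV39H1 and SUV39H2 had log2 fold changes of 0.39 (interval -0.12 to 0.90) and 0.07 (interval -0.42 to 0.56), and their groups overlapped.

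Of the Jumonji demethylases that act on H3K36 and H3K9, 10 had an adjusted p, with 1 called higher and 1 lower (10% each, beside 5.57% and 5.44% of all genes). KDM2A binds unmethylated CpG islands and removes mono- and dimethylation of H3K36. At chr11:67119263-67258082 on the plus strand, it had 2045, 2710.3 and 2453 normalized counts in EV libraries and 4010.3, 3796 and 3606 in HDAC8 1, 2 and 3. The lowest library labelled HDAC8 stood well clear of the highest EV library, and KDM2A rose 1.58-fold (95% interval 1.27 to 1.98, DESeq2 adjusted p = 0.00105). Without EV 1 its log2 fold change was 0.56, under the fold minimum, with an adjusted p of 0.036. Its relative KDM2B, a subunit of a variant Polycomb complex, had overlapping groups, with 1817, 1934 and 1819.5 in EV against 1940.2, 2004 and 1826 in HDAC8 (log2 fold change 0.05, interval -0.28 to 0.38).

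KDM7A, an eraser of lower methylation states of H3K9 and H3K27, lies at chr7:140084746-140176983 on the minus strand. It had 1212, 996 and 1595 normalized counts in EV libraries and 730.2, 678 and 813 in the others. The EV libraries were spread, with EV 3 the highest, yet all lay above the libraries labelled HDAC8, and KDM7A fell by 41.6% (log2 fold change -0.78, SE 0.24, DESeq2 adjusted p = 0.0135). The call was lost without EV 3 (log2 fold change -0.58, adjusted p = 0.202), EV 1 (adjusted p = 0.0627) or HDAC8 2 (0.0552). The non-coding KDM7A-DT, which starts beside it and runs the other way, had 58.7, 154 and 82.8 in EV against 132, 130.1 and 132 in HDAC8 and was not called (DESeq2 adjusted p = 0.777).

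KDM3B and KDM4B passed the adjusted p below the fold minimum. KDM3B, which removes mono- and dimethylation of H3K9, had 3983, 4643 and 3960.2 in EV libraries and 5819, 5879 and 5603 in the others, with those labelled HDAC8 close together (log2 fold change 0.46, SE 0.14, DESeq2 adjusted p = 0.0124). It no longer passed under edgeR (adjusted p = 0.0722), limma-voom (0.0602) or without EV 1 (0.132), EV 3 (0.142) or HDAC8 3 (0.067). KDM4B, an eraser of H3K9 trimethylation, had 1265, 1631 and 1380.2 in EV against 2501, 1815 and 2041 in HDAC8 (log2 fold change 0.57, DESeq2 adjusted p = 0.0346). It was called higher with total-count size factors, without EV 2 (its highest EV library) and without HDAC8 2 (its lowest labelled HDAC8). With the fold minimum kept, no other alternative called KDM4B. Whether it still passed the adjusted p under those alternatives is not given here. KDM4A, of the same subfamily, had negative values, with 3323, 3778 and 3636 in EV against 3284, 2583 and 2416 in HDAC8, groups apart and no call (log2 fold change -0.37, interval -0.71 to -0.04). KDM4C (log2 fold change -0.03) and KDM3A (-0.03) had overlapping groups, while KDM8 and KDM4D had at most 132.6 normalized counts in any library and intervals too wide to place either.

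The writers of H3K36 methylation are the NSD enzymes, which dimethylate it, and SETD2, which trimethylates it in transcribed gene bodies. None was called. NSD1 passed the adjusted p below the fold minimum, with 6899.8, 7216 and 7426 in EV libraries and 9053, 9199.9 and 9914 in the others, tight and apart (log2 fold change 0.39, SE 0.13, DESeq2 adjusted p = 0.0218). The pass was lost under edgeR (adjusted p = 0.135), limma-voom (0.0827) and without EV 1 (0.178), EV 2 (0.0635), EV 3 (0.108) or HDAC8 3 (0.176). NSD2 and NSD3 had log2 fold changes of 0.27 (interval -0.004 to 0.536) and 0.25 (interval -0.06 to 0.55). SETD2 had 4849.8, 3806 and 4706 in EV against 3137, 3922 and 3553 in HDAC8, with overlapping groups and a negative log2 fold change of -0.33 (DESeq2 adjusted p = 0.188).

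DOT1L, the sole known writer of H3K79 methylation, had 4458, 5866 and 4929 normalized counts in EV libraries and 7991, 6352 and 6685 in the others. All libraries labelled HDAC8 were above EV, and DOT1L passed the adjusted p but not the fold minimum (log2 fold change 0.46, SE 0.16, DESeq2 adjusted p = 0.032). That pass was lost under edgeR (adjusted p = 0.0841), limma-voom (0.0674) and without EV 1 (0.246), EV 3 (0.182), HDAC8 1 (0.0541) or HDAC8 3 (0.0928), and normalization within GC bins lowered the log2 fold change to 0.29. Among the H4K20 enzymes KMT5A, which monomethylates H4K20 during mitosis, had 2552, 2641 and 2419.5 in EV against 1537, 1877 and 2089.7 in HDAC8. Its groups lay apart with the libraries labelled HDAC8 lower, but it was not called (log2 fold change -0.47, interval -0.82 to -0.12, DESeq2 adjusted p = 0.0615). KMT5B and KMT5C, which add further methyl groups, had overlapping groups and log2 fold changes of 0.17 and -0.08.

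Of the arginine methyltransferases 7 had an adjusted p and 1 was called (higher, 14.3% beside 5.57% of all genes). PRMT5 places symmetric dimethylarginine on histones and on splicing proteins and works together with WDR77. It lies at chr14:22920525-22929408 on the minus strand, and had 2570.1, 2958 and 2441 normalized counts in EV libraries and 4089.9, 4244 and 4566 in HDAC8 1, 2 and 3. The groups were far apart relative to their spread, and PRMT5 rose 1.62-fold (95% interval 1.31 to 1.99, log2 SE 0.15, DESeq2 adjusted p = 1.46e-04). PRMT5-AS1, which overlaps PRMT5 on the opposite strand, held at most 58.1 normalized counts in any library, and strand-specific counting is not stated. RIOK1, an adaptor that brings substrates to PRMT5, also rose, from 789.6, 701 and 1028 in EV to 1474, 1621 and 1495 in HDAC8 (log2 fold change 0.87, DESeq2 adjusted p = 0.0012). WDR77, the obligate partner of PRMT5, had 2189.5, 2142 and 1706 in EV against 1702, 1237 and 1453 in HDAC8 and was not called (log2 fold change -0.46, DESeq2 adjusted p = 0.118).

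PRMT1, the main source of asymmetric dimethylarginine, had 2265, 3072 and 2076 in EV against 3272, 3001 and 3308 in HDAC8. EV 2 lay within the range of the libraries labelled HDAC8, and PRMT1 was not called (log2 fold change 0.37, interval 0.01 to 0.73, DESeq2 adjusted p = 0.193). PRMT3, a cytoplasmic enzyme that methylates a ribosomal protein, had 1061, 768 and 1152 in EV against 567, 662 and 732 in HDAC8. Its log2 fold change of -0.60 exceeded the fold minimum in size without passing the test (DESeq2 adjusted p = 0.0951). PRMT3 was called lower with a minimum of 10 counts in every library and without EV 2, its lowest EV library. No other alternative called it. The remaining PRMT2, PRMT6, PRMT7 and PRMT9 were not called and had log2 fold changes from -0.20 to 0.54.

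KDM1A, known as LSD1, removes mono- and dimethylation of H3K4 within the CoREST complex, which also holds HDAC1 and HDAC2. It was not called, with 4173, 3969 and 4112 in EV libraries and 4573, 4158 and 4298 in the others, and its 95% interval of -0.18 to 0.36 around a log2 fold change of 0.09 was narrow. KDM1B had 1095, 1045 and 1123 in EV against 571, 1064 and 915 in HDAC8, with HDAC8 1 low and no call (log2 fold change -0.36). Members with another or unsettled substrate were not called. The most abundant of these, SETD5, had 8062, 7698 and 7702 in EV against 5881, 5864 and 6978 in HDAC8, with groups apart and a negative log2 fold change of -0.33 (DESeq2 adjusted p = 0.1). SETD3, the actin histidine methyltransferase, SETD4, SETD6, SETD9, SMYD4 and NSDHL had log2 fold changes from -0.32 to 0.38.

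The balance between related enzymes was read as the log2 ratio of their normalized counts within each library, which needs no scaling between libraries. Counts were not corrected for gene length, so a ratio of 0 is not the point of equal transcript number. Of 12 related pairs the groups lay apart in 5, and no test was run on these ratios. The share over other pairs of genes was not computed, while single genes lay apart in 13.8% (above) and 15.2% (below) of cases, so the count of pairs is a description only. EZH2 over EZH1 was 1.37, 1.04 and 1.64 in EV 1, 2 and 3 and 0.31, 0.90 and 0.59 in HDAC8 1, 2 and 3, so every library labelled HDAC8 had a smaller excess of EZH2 counts. KDM6A over KDM6B was -1.27, -1.61 and -1.24 in EV against -2.14, -1.76 and -1.76 in HDAC8, lower in all 3. EHMT1 over EHMT2 was 0.77, 0.50 and 0.73 in EV against 0.35, -0.14 and 0.07 in HDAC8, and lay below 0 in HDAC8 2. Per kb of merged exons EHMT2 lay above EHMT1 in every library, EV included. EHMT2 had 172.1, 195.5 and 165.7 per kb in EV 1, 2 and 3, against 96.3, 90.7 and 90.4 for EHMT1. In the other direction, KDM2A over KDM2B was 0.17, 0.49 and 0.43 in EV libraries and 1.05, 0.92 and 0.98 in the others, the tightest of the separated pairs in the libraries labelled HDAC8. KDM5A over KDM5B was -0.44, -0.44 and -0.34 in EV against 0.58, -0.27 and -0.15 in HDAC8, where HDAC8 1 lay far from its group's other libraries. The pairs that overlapped included KMT2A over KMT2B (1.60, 1.26 and 1.79, against 1.25, 1.96 and 1.87), whose members had positive log2 fold changes together, and KMT2C over KMT2D, SETD1A over SETD1B and NSD2 over NSD3. A ratio shows unequal change between a pair and does not say which of them changed.

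**Figure D3:**
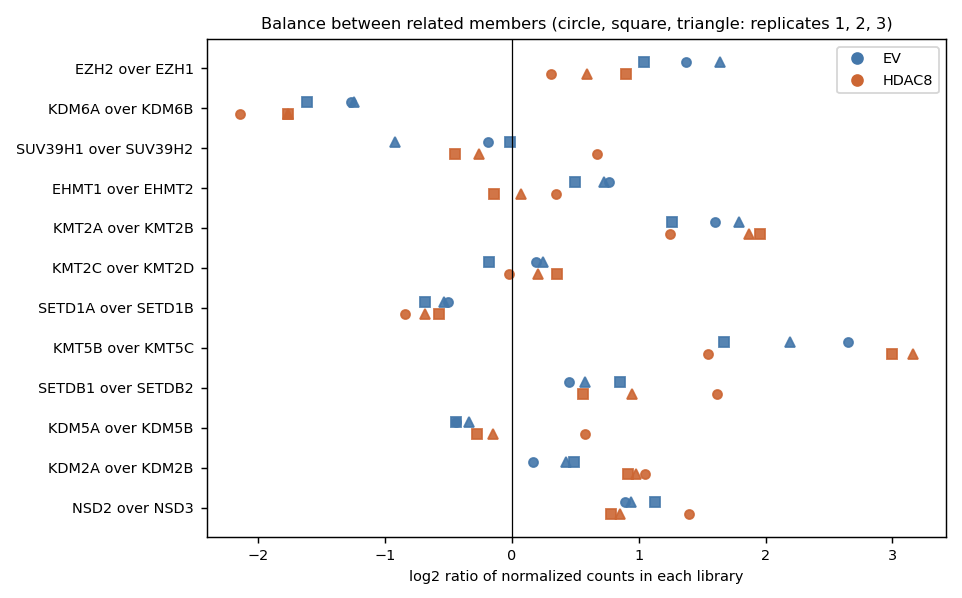
Log2 ratio of the normalized counts of 12 related pairs (horizontal axis, first gene over second) in each EV library (blue) and each library labelled HDAC8 (orange). The colours separate for EZH2 over EZH1, KDM6A over KDM6B, EHMT1 over EHMT2, KDM5A over KDM5B and KDM2A over KDM2B and mix for the other 7 pairs.

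Across members, HDAC8 1 stood apart. It was the highest or lowest of the 6 libraries in 37 of the 61 members, against 13 to 22 for each other library. Its median absolute log2 difference from its group's other libraries was 0.324, against 0.109 to 0.218 elsewhere. It also had the lowest mitochondrial share. Without it, 4 members were called higher (KMT2A, PRMT5, KDM2A and KDM6B) and 2 lower. Without EV 3 there were 3 higher and 0 lower, and without EV 1 there were 4 higher and 0 lower. Members richer in G and C tended to have more positive log2 fold changes: over the 61 members, which share the libraries and their base composition, the correlation of transcript GC content with log2 fold change was r = 0.31 (rho 0.37), against 0.10 (rho 0.15) over all genes. Median GC content was 52.5% in the 6 members called higher, 41.2% in the 2 called lower and 48% over the 61. Normalization within GC bins left 5 of the higher calls and both lower ones.

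**Figure D4:**
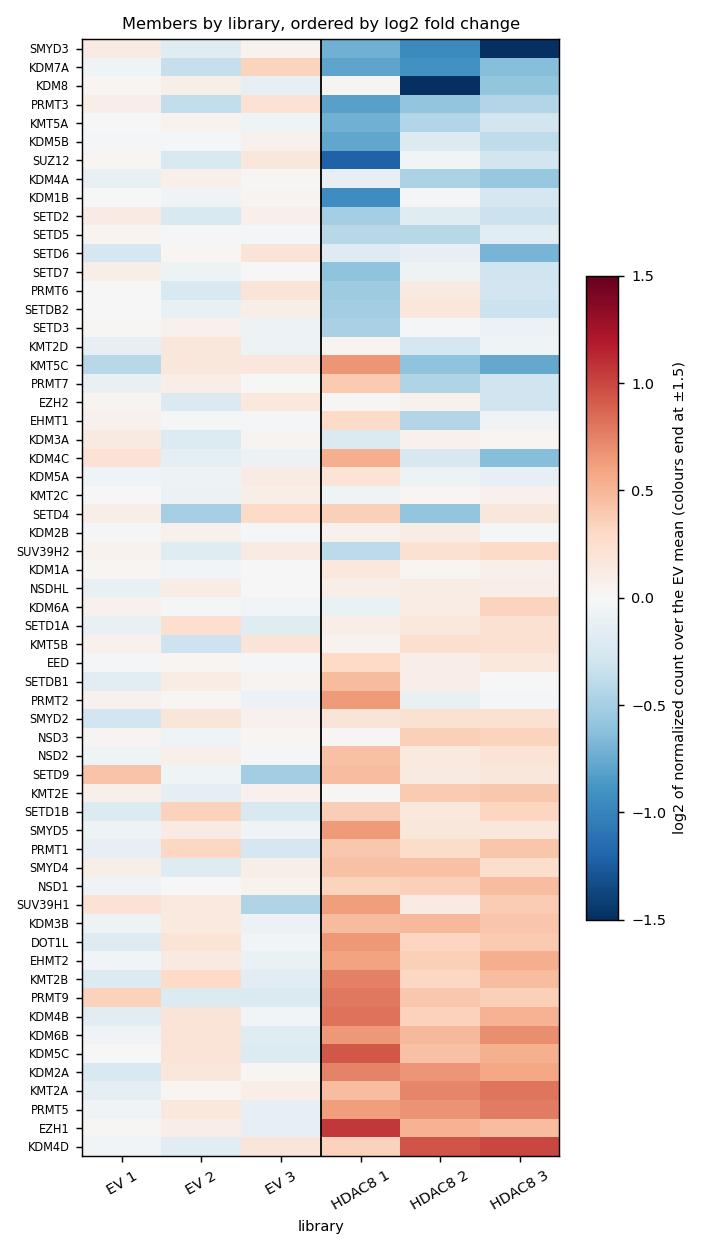
Log2 of the normalized count over the EV mean (colour, from blue for lower to red for higher) in the 6 libraries (columns) for the 60 members with at least 20 normalized counts in every library (rows, ordered by log2 fold change). The EV columns are mostly pale, the 3 columns labelled HDAC8 share colour at the top and bottom ends, and HDAC8 1 differs from its neighbours in many middle rows.

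Levels were compared between members as normalized counts per kb of merged exons in the EV libraries. PRMT5 was highest (784, 903 and 745 per kb), and its lowest library stayed above the highest of KDM4A (641, 729 and 701), the next in order. KMT2D (597, 730.1 and 616) and KMT5A (606, 627 and 574) followed, and their ranges overlapped. Of the 60 neighbouring pairs in the order, 54 had overlapping EV libraries, so most adjacent ranks cannot be told apart. At the low end, KDM8, KDM4D and SMYD1 were separated from each other and from the rest. Merged exons overstate the length of the main transcript of some genes, KDM6A among them. With the longest transcript instead, 6 of the 10 highest members were shared and the rank correlation over members was 0.91, with PRMT5 then at rank 3 and the same 3 members last.

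**Figure D5:**
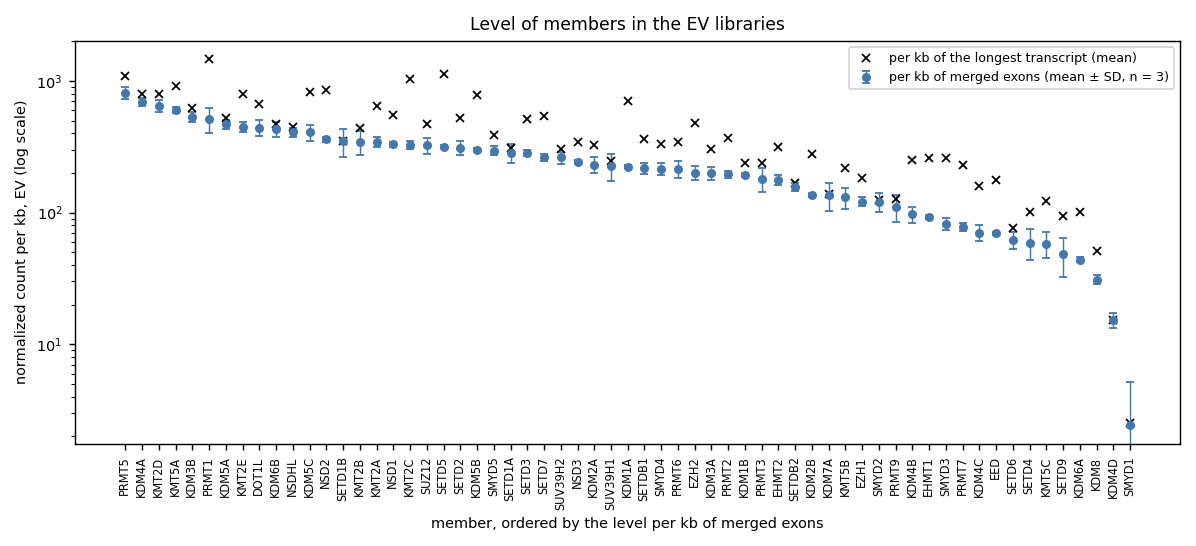
Normalized count per kb in the EV libraries (vertical axis, log scale) of the 61 members with an adjusted p, per kb of merged exons (blue, mean ± SD, n = 3) and per kb of the longest transcript (black crosses, mean). Both scales place most members within a shallow slope, with KDM8, KDM4D and SMYD1 falling away at the right; the lower bar of SMYD1 runs off the axis.

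The subunits and partners with which these enzymes work were taken as lists of their own, 67 genes in the table, of which 64 had an adjusted p. Of these 6 were called higher and 2 lower, which is 9.38% and 3.12%, beside the 5.57% and 5.44% of all genes. The libraries labelled HDAC8 lay wholly above EV in 26.6% of the 64 and wholly below in 20.3%, beside 13.8% and 15.2% of all genes. Among 12 subunits of the KMT2 and SETD1 complexes 0 were called, WDR5 (log2 fold change 0.44) and MEN1 (-0.25) included, while BOD1L1, a SETD1 partner, passed the adjusted p at 0.49 and NCOA6, a partner of KMT2C and KMT2D, at -0.46, both under the fold minimum. Of 9 accessory subunits of PRC2, AEBP2, which helps PRC2 engage nucleosomes, was the one called: it had 3051, 2497 and 2729 in EV libraries and 1391, 1649 and 1582 in the others, apart by a wide margin (log2 fold change -0.84, SE 0.17, DESeq2 adjusted p = 3.54e-05). JARID2 (-0.10), MTF2 (-0.03) and PHF19 (0.25) were not called.

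In the LSD1 complex list RCOR1, HDAC1 and HDAC2 were not called. ZMYM2, a zinc finger protein of that complex, fell from 4991, 3396 and 4304 in EV to 2433, 2736 and 2928 in HDAC8 (log2 fold change -0.65, DESeq2 adjusted p = 0.00396), and GFI1, a repressor that recruits it, was called higher at low counts of 0.0, 4.7 and 9.9 in EV against 39.3, 86.0 and 80.6 in HDAC8. TRIM28, the corepressor that brings SETDB1 to its targets, rose from 7326, 9629.8 and 7648 in EV to 14809, 11271 and 11387 in HDAC8 (log2 fold change 0.61, DESeq2 adjusted p = 0.0026), and CBX5, the HP1 alpha protein that binds methylated H3K9, passed the adjusted p at 0.53. Of the 12 listed enzymes that the prefixes leave out and that had an adjusted p, 3 were called higher (25%) and 0 lower. These shares stand beside 5.57% and 5.44% of all genes. PHF8, an eraser of H3K9 and H4K20 methylation, had 1497, 2105 and 2166 in EV against 3251, 2683 and 3140.5 in HDAC8 (log2 fold change 0.65, DESeq2 adjusted p = 0.0076). HR, a Jumonji corepressor of hair follicles, had 1613, 2087 and 1724 in EV against 3345, 2365 and 2820.4 in HDAC8 (log2 fold change 0.65, DESeq2 adjusted p = 0.00799), and MECOM, a zinc finger factor of the PRDM family, had 31.5, 55.1 and 54.2 in EV against 179.6, 221 and 179 in HDAC8 (log2 fold change 2.04, DESeq2 adjusted p = 0.00209). CARM1, ASH1L and the DOT1L partners MLLT1, MLLT3, MLLT6 and MLLT10 were not called. Of 6 genes of methyl donor supply 0 were called, and AHCY, which clears the product that inhibits methyltransferases, passed the adjusted p at -0.41, under the fold minimum.

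Of the 14 non-coding rows that share the prefixes, 13 were examined. SUZ12P1 came nearest to a call, and KDM4A-AS1, KMT2E-AS1, PRMT1P1, PRMT5-AS1 and KDM7A-DT had overlapping groups and were not called. The other 7 had no adjusted p or fell under the count minimum.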

How the data were processed

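Per the labels and the study's methods, total RNA of each WM164 culture was made into an Illumina library. The RNA kit and library protocol differ between the labels and the methods. The authors trimmed reads with Trimmomatic, aligned them with STAR and ran RSEM, whose expected counts per gene they deposited unscaled. RSEM divides ambiguous reads between related genes, which adds uncertainty for close relatives. Genome build, annotation and strand setting are not given in the sources used here. Positions came from GENCODE 44 (GRCh38) by Ensembl identifier, with 65 of 65 members found.

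Expected counts were rounded and tested over 26162 genes with a total of at least 10 counts in DESeq2 1.42.0 (R 4.3.3; Wald test, two-sided), without covariates, with the tool's size factors (0.918 to 1.17) and Benjamini-Hochberg adjustment. Of these, 21021 had an adjusted p. Normalized counts are rounded counts divided by the size factors. Intervals are 95% and use the DESeq2 standard error. A library with 0 counts allows up to 3, or 2.57 to 3.27 normalized counts, and reads without molecular identifiers make this cover counting error only. Pairs of libraries within a group were not copies of each other (their chi-square was 26 to 153 times its degrees of freedom), so none was merged. Scripts were tested on simulated data.

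Members and all lists were chosen with earlier results of these data known. Named genes are every called member, the member with the highest mean count of each role group, and EZH2, EZH1, EED, SUZ12, KDM1A, KDM6A, KDM6B, DOT1L, SETDB1, PRMT1 and PRMT5. Other genes are named by their role or because their values stood near a threshold, after the values were seen. Alternatives were edgeR 4.0.16 (quasi-likelihood), limma-voom (limma 3.58.1), other size factors and count filters, a replicate block, a test against the fold minimum, no fold minimum, each library left out and a fit without mitochondrial genes. Normalization within 20 bins of GC content was added after the data had been seen. Of the marker genes, 1 is not reported here.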

Additional observations from a re-analysis of the deposited data

How the results depend on the processing

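The 6 higher and 2 lower calls among members stayed within 1.5 times under edgeR, limma-voom, total-count or upper-quartile size factors, other count filters, no mitochondrial genes and GC-bin normalization. No fold minimum gave 11 higher, and a test against the fold minimum gave 0 higher and 0 lower, which its own construction makes stricter. Leaving out each library in turn gave 3 to 8 higher and 0 to 2 lower calls, the fewest without EV 3 (3 and 0). Replicate numbers did not pair the libraries (correlations of deviations -0.13, -0.318 and 0.157), and a replicate block gave 5 higher and 1 lower, losing EZH1 (adjusted p = 0.0581) and SMYD3 (adjusted p = 0.0537). Under the block DOT1L (0.0969), NSD1 (0.0982) and KDM3B (0.0575) no longer passed the adjusted p. Over 330 alternative values for 22 named genes, 303 had the direction and the call of the reported fit, 20 lost the call, 0 gained one and 7 changed sign, and 13 genes changed neither call nor sign in any, which does not cover a pass of the adjusted p alone. The test against the fold minimum and the setting without a fold minimum are outside this tally. So are the members not named by rule, of which KDM4B, KMT2B and PRMT3 gained a call in some alternatives. The sign changes were EHMT1, at 0.013 with total-count size factors and from -0.234 to 0.134 over libraries left out, EZH2, at 0.082 with GC-bin normalization and from -0.164 to 0.041 over libraries left out, and KMT2C, from -0.033 to 0.056 over libraries left out. These were not called under any setting, and the cause was not tested. The level order per kb shared 6 of its 10 highest members when the longest transcript replaced merged exons. No scaling moved the median of all genes by over 0.1. With 3 libraries a group, small changes are not detectable: intervals of members with few counts, such as SMYD1, KDM8 and KDM4D, span the fold minimum in both directions or nearly so.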
